A study of Danio rerio with 12 samples.

Results

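The genes described here are those of the zebrafish red blood cell: the globins, the enzymes of heme synthesis, and the iron transporters, membrane proteins, enzymes, receptor and transcription factors of the erythroid lineage. They were taken by symbol from the authors' deposited table. Every entry whose symbol begins with hbae or hbbe (embryonic alpha and beta globins) or with hbaa or hbba (adult alpha and beta globins) was used, together with a list of red cell genes. An entry is a transcript class (such as protein-coding or retained intron) of a gene identifier, and some genes have more than 1. The choice gave 54 of the table's 35497 entries. Of these, 40 averaged at least 1 CPM (a count scaled to the library total) and were tested, and 14 lay below that limit. The tested entries stand for 31 of 34 symbols, and the entry with the most reads stands for a gene that has several. The symbols with no tested entry were the adult globins hbaa2, hbba1 and hbba2.

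Hemoglobin is a tetramer of alpha and beta globin chains, each holding a heme group that binds oxygen. Zebrafish, like mammals, make embryonic globins first and adult globins later, and their globin genes lie in a major and a minor cluster on different chromosomes. Heme is built from glycine and succinyl-CoA by a chain of enzymes that begins and ends in the mitochondrion, and the erythroid form of the first enzyme, alas2, limits the rate in red cells. The transcription factor gata1a drives this programme together with klf17, tal1 and lmo2, and the hormone erythropoietin, acting through its receptor epor, keeps red cell precursors alive.

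RNA came from whole fish after 48 h in 4 groups of 3 libraries. The groups were benzo[a]pyrene (labelled B[a]P and written BaP here), a combustion product that binds the aryl hydrocarbon receptor, diclofenac (Diclofenac), an anti-inflammatory drug that inhibits cyclooxygenases, both compounds together (Mixture), and neither (Control). The sources used here do not state strain, age or dose, so differences between Mixture and a single compound assume that each compound had the same dose alone and in the mixture. The table holds finished comparisons of each treatment with Control, which share the Control libraries. Values per library were not analysed here, and the depth of each library is unknown from the table. Folds below are 2 to the power of the authors' deposited log2 fold change, with 95% intervals implied by that change and its likelihood ratio. A gene is called, and said to have risen or fallen, at an adjusted p under 0.05 (the authors' likelihood ratio test, Benjamini-Hochberg over all 21622 entries of at least 1 CPM). The mean level of each group, in CPM, was implied by the average over the fit and the 3 fold changes. It has no error of its own, and CPM does not correct for transcript length, so levels are compared between groups and not between genes. In whole fish, more red cells and more RNA per red cell cannot be told apart.

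The labelled tissue, whole body, held red cell transcripts of the embryonic kind. All embryonic globin entries together came to an implied 4985 CPM in Control, 7276 with BaP, 7029 with diclofenac and 8788 with the mixture. That was 0.517%, 0.712%, 0.709% and 0.851% of the summed level of all entries. Adult globin entries together came to 2.56, 2.98, 1.84 and 1.63 CPM in the same order. The one adult globin tested, hbaa1, had a fold of 0.828 with BaP, 0.617 with diclofenac and 0.557 with the mixture, and was not called (adjusted p = 1, 0.55 and 0.456). Its intervals were wide, reaching from 0.224 to 1.39 for the mixture.

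By the adjusted test 0 of 31 genes were called with BaP, 10 rose with diclofenac and 18 with the mixture, and 0 fell in any of the 3 comparisons. The adjustment was made within each comparison, so a call with diclofenac and not with BaP does not show a difference between them. By the authors' likelihood ratio test, hbbe1.2 with BaP (unadjusted p = 0.0044) was not called, while slc4a1a with diclofenac (unadjusted p = 0.00648) was. All 10 genes raised by diclofenac, namely hbae5, hbbe1.2, hbbe2, hbbe3, hmbsb, ppox, cpox, epb41b, slc4a1a and gata1a, were also raised by the mixture. The mixture raised 8 others, which were hbae1.1, hbbe1.1, alas2, urod, fech, blvrb, nt5c2l1 and klf17. Under the stricter Benjamini-Yekutieli adjustment 7 of the 18 mixture calls were lost, those of hbae1.1, hbbe1.1, alas2, cpox, fech, klf17 and slc4a1a, and 2 of the 10 diclofenac calls, those of cpox and slc4a1a. As entries, 11 of 40 rose with diclofenac, which is 27.5% beside 8.52% of all tested entries, and 20 of 40 rose with the mixture, which is 50% beside 8.12%. The background of entries that fell was 7.64% with diclofenac and 6.67% with the mixture. For BaP the background was 0.116% higher and 0.0324% lower, so that few genes of any kind passed. Before adjustment, 12 of 31 genes had a p under 0.05 and were higher with BaP and 0 were lower, beside 2.04% of all tested entries higher and 1.94% lower. The median log2 change of the 31 genes was 0.30 with BaP, 0.47 with diclofenac and 0.71 with the mixture, while the median of all tested entries was 0.02, -0.01 and 0.02. Of the 31 genes, 22 (71%) had a higher value with the mixture than with either compound, which holds for 30.3% of all tested entries. The members were chosen with earlier results of these data known, so their shares beside those of all entries are descriptive only.

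**Figure D1:**
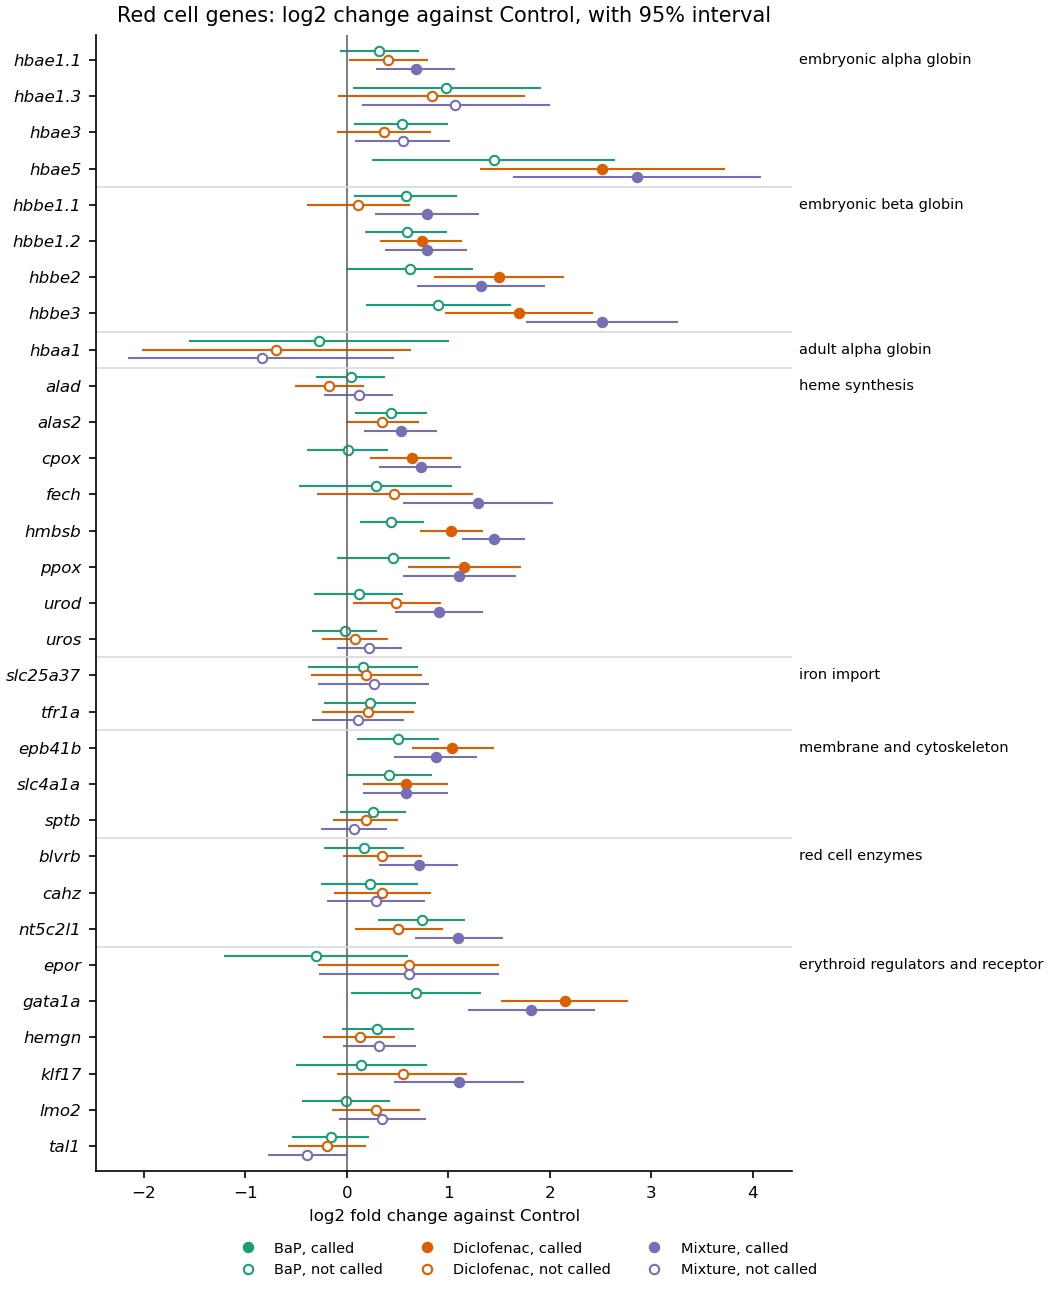
Log2 fold change against Control (horizontal axis) of the 31 red cell genes, grouped by role, for BaP, diclofenac and the mixture. Points are the authors' values, bars the implied 95% intervals, and filled points are called. No BaP point is filled, 10 diclofenac and 18 mixture points are, and hbae5 and hbbe3 lie farthest to the right.

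Among the embryonic globins, the summed level of the minor cluster stood farther above Control than that of the major cluster. The RefSeq gene order (assembly GRCz12tu, used for names and neighbours only) places hbae4, hbbe3, hbbe2 and hbae5 side by side, apart from the major cluster of 11 genes that holds the other embryonic and the adult globins. No entry carries the symbols hbae4, hbae1.2 or hbbe1.3, though an entry under hbae1.1 may be hbae1.2, as described with its values. Summed over all entries, the minor cluster's embryonic globins came to an implied 149 CPM in Control, 264 with BaP, 477 with diclofenac and 667 with the mixture. These sums were 1.77, 3.2 and 4.48 times the Control sum. The major cluster's embryonic globins came to 4836, 7012, 6553 and 8122 CPM, which were 1.45, 1.36 and 1.68 times Control. The minor cluster went from 2.99% of embryonic globin reads in Control to 3.62% with BaP, 6.78% with diclofenac and 7.59% with the mixture. The difference between the clusters was not tested.

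In the minor cluster hbbe3 (ENSDARG00000038147), an embryonic beta globin, had an implied level of 82.1 CPM in Control, 154 with BaP, 267 with diclofenac and 471 with the mixture. Each group was higher than the one before it in that order. With diclofenac it rose 3.25-fold (95% interval 1.96 to 5.38, adjusted p = 1.22e-04) and with the mixture 5.74-fold (3.41 to 9.64, adjusted p = 4.47e-09). With BaP the fold was 1.87 (1.14 to 3.07, adjusted p = 0.954). The neighbouring beta globin hbbe2 (ENSDARG00000045143) had 63.6 CPM in Control, 97.7 with BaP, 180 with diclofenac and 159 with the mixture. It was highest with diclofenac, rising 2.83-fold (1.82 to 4.4, adjusted p = 9.58e-05), against 2.5-fold with the mixture (1.61 to 3.87, adjusted p = 9.01e-04). The alpha globin hbae5 (ENSDARG00000045142) had far fewer reads, at 0.901 CPM in Control, 2.45 with BaP, 5.17 with diclofenac and 6.56 with the mixture. It rose 5.74-fold with diclofenac (2.47 to 13.3, adjusted p = 8.27e-04) and 7.28-fold with the mixture (3.13 to 17, adjusted p = 1.23e-04), and its fold with BaP was 2.72 (1.19 to 6.24, adjusted p = 1). A processed-transcript entry of hbae5 had 0.747, 0.717, 1.18 and 1.1 CPM in Control, BaP, diclofenac and the mixture and was not called. With all its entries summed, hbae5 was 1.94, 4.02 and 4.94 times Control with BaP, diclofenac and the mixture.

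Both hbbe2 and hbbe3 also have an entry under a second gene identifier. Whether the copies are alike enough to share reads was not tested, and the values of each are uncertain to that extent. The second hbbe3 entry went from 0.434 CPM in Control to 9.65 with diclofenac and 10.9 with the mixture. It rose 22.2-fold with diclofenac, but with an interval of 2.95 to 167 (adjusted p = 0.0213). With the mixture it rose 25.2-fold, with an interval of 3.29 to 193 (adjusted p = 0.0183). The second hbbe2 entry was not called with any treatment, and its mixture fold of 16.6 had an interval of 1.59 to 174. With the entries of a symbol summed, hbbe3 went from 82.6 CPM in Control to 156, 276 and 482 with BaP, diclofenac and the mixture, and hbbe2 from 64.7 to 105, 194 and 176. The summed levels therefore keep the order of the main entries.

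The major cluster holds the globins with most reads. The alpha globin hbae1.1 had an implied 1497 CPM in Control, 1866 with BaP, 1989 with diclofenac and 2394 with the mixture in its main entry, ENSDARG00000088330. The reference name table lists that identifier as hbae1.2, so which gene of the pair the entry measures is uncertain. It rose 1.6-fold with the mixture (1.22 to 2.1, adjusted p = 0.00836), and its fold of 1.33 with diclofenac was not called (adjusted p = 0.156). The second identifier under that symbol, ENSDARG00000089475, which the reference name table also lists as hbae1.1, rose 2.57-fold with the mixture (1.74 to 3.8, adjusted p = 6.98e-05). The beta globin hbbe1.2 (ENSDARG00000115405) had 516 CPM in Control, 776 with BaP, 861 with diclofenac and 890.2 with the mixture. It rose 1.67-fold with diclofenac (adjusted p = 0.0045) and 1.73-fold with the mixture (adjusted p = 0.00243), and was the only globin of the major cluster called with diclofenac. The beta globin hbbe1.1 (ENSDARG00000113599) had 875 CPM in Control, 1310 with BaP, 947 with diclofenac and 1516 with the mixture. With diclofenac its fold was 1.08 (0.761 to 1.54), and with the mixture it rose 1.73-fold (1.22 to 2.47, adjusted p = 0.0215). Neither hbae3 nor hbae1.3 was called. The first had folds of 1.45, 1.29 and 1.47 and the second of 1.98, 1.79 and 2.11 with BaP, diclofenac and the mixture. In that order the intervals of hbae3 were 1.05 to 2.01, 0.932 to 1.78 and 1.06 to 2.03. Those of hbae1.3 were 1.04 to 3.76, 0.94 to 3.39 and 1.11 to 4.01. With BaP, hbbe1.1 and hbbe1.2 each had a fold of 1.5, with intervals of 1.05 to 2.13 and 1.14 to 1.99. The BaP fold was 1.25 (0.951 to 1.63) for the main hbae1.1 entry and 1.64 (1.12 to 2.42) for the second. None of these BaP folds was called.

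**Figure D2:**
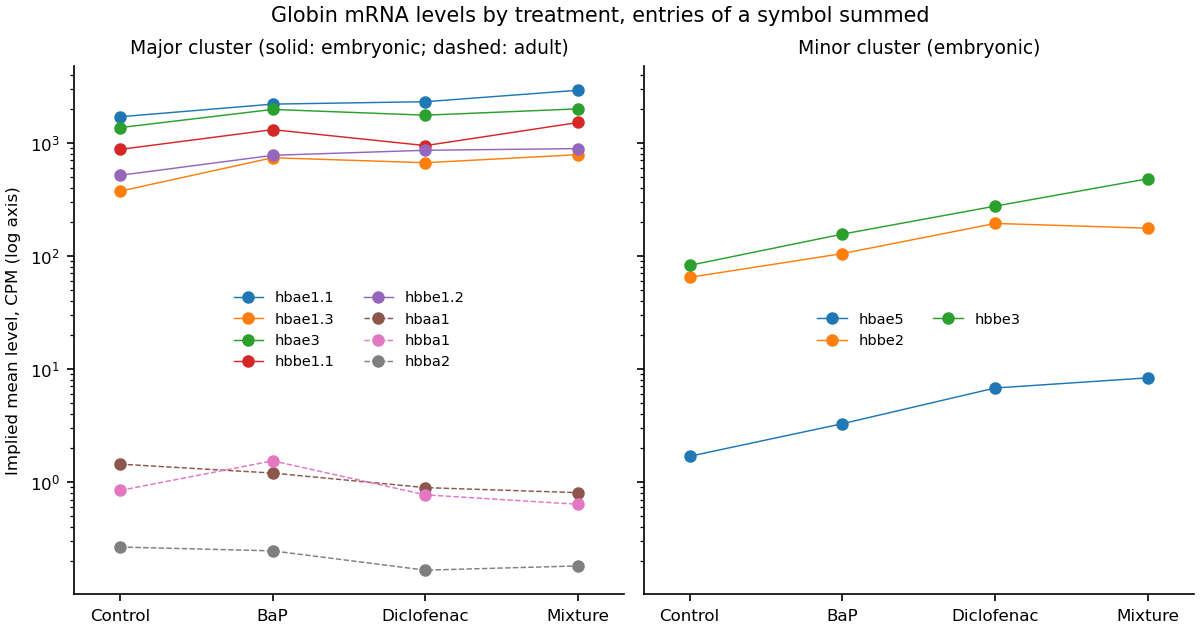
Implied mean level in CPM (logarithmic vertical axis) of each globin symbol in the 4 groups, with all entries of a symbol summed, for the major cluster on the left and the minor cluster on the right. Points carry no error, lines only join a gene's points, and hbaa2, near 0 in every group, is left out. The minor cluster genes hbbe3, hbbe2 and hbae5 climb from Control to diclofenac and the mixture, the major cluster's embryonic globins climb less, and the adult globins stay near or below 1 CPM in most groups.

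Not every enzyme of heme synthesis was called. Of the 8, diclofenac raised 3 and the mixture 6, where 8.52% and 8.12% of all tested entries rose. The median log2 changes of the 8 were 0.48 and 0.82, beside -0.01 and 0.02 for all tested entries. The smallest p was that of hmbsb (ENSDARG00000055991), hydroxymethylbilane synthase, which joins porphobilinogen units into a linear tetrapyrrole. It had an implied 19.6 CPM in Control, 26.6 with BaP, 40 with diclofenac and 53.4 with the mixture. It rose 2.05-fold with diclofenac (1.65 to 2.54, adjusted p = 6.01e-09) and 2.73-fold with the mixture (2.2 to 3.38, adjusted p = 1.99e-17). Its BaP fold of 1.36 had an interval of 1.1 to 1.69 and was not called (adjusted p = 0.694). The other gene of this enzyme, hmbsa, is outside the members and was named after its values were seen. It rose 1.53-fold with the mixture (1.14 to 2.06, adjusted p = 0.0363). Its diclofenac fold of 1.19 (0.884 to 1.61) was not called (adjusted p = 0.492). The enzymes on either side of hydroxymethylbilane synthase in the chain were not called. For alad, which makes porphobilinogen, the folds were 1.03 with BaP, 0.888 with diclofenac and 1.09 with the mixture, and for uros, which closes the ring, 0.988, 1.06 and 1.17. The highest upper bound of these 6 intervals was 1.46, below the folds of hmbsb with diclofenac and the mixture.

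Further along, urod, which trims the side chains of the ring, had 15.1 CPM in Control, 16.4 with BaP, 21.3 with diclofenac and 28.4 with the mixture. It rose 1.88-fold with the mixture (1.39 to 2.53, adjusted p = 7.89e-04), and the diclofenac fold of 1.41 was not called (adjusted p = 0.115). The oxidases of the next steps, cpox and ppox, were called with both treatments. The level of cpox was 16.6 CPM in Control and 16.7 with BaP, against 25.8 with diclofenac and 27.5 with the mixture, which were rises of 1.56-fold and 1.65-fold (adjusted p = 0.0171 and 0.00538). For ppox the rises were 2.23-fold with diclofenac (1.51 to 3.3, adjusted p = 9.01e-04) and 2.15-fold with the mixture (1.46 to 3.18, adjusted p = 0.0019). The last enzyme, fech, which inserts iron, was called with the mixture alone, at 2.45-fold (1.46 to 4.09, adjusted p = 0.00788), from 1.98 CPM in Control to 4.83. The rate-limiting enzyme alas2 (ENSDARG00000038643) had 181 CPM in Control, 245 with BaP, 231 with diclofenac and 261 with the mixture. It rose 1.44-fold with the mixture (1.12 to 1.85, adjusted p = 0.0319), a smaller fold than those of hmbsb, ppox, urod and fech. The alas2 interval lay below that of hmbsb but overlapped those of ppox, urod and fech. Differences between the enzymes were not tested.

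Neither tfr1a nor slc25a37, the members for iron import, was called with any treatment. The transferrin receptor tfr1a, which takes up iron at the cell surface, had folds of 1.17, 1.15 and 1.08 with BaP, diclofenac and the mixture, with an upper bound of 1.6 over the 3 intervals. The mitochondrial iron importer slc25a37, mitoferrin, had folds of 1.12, 1.14 and 1.2, with an upper bound of 1.76.

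Of the 3 membrane and cytoskeleton genes, 2 rose with diclofenac and with the mixture, where 8.52% and 8.12% of all tested entries rose. The protein 4.1 gene epb41b, which ties spectrin and actin to the membrane, had an implied 29.7 CPM in Control, 42.2 with BaP, 61.1 with diclofenac and 54.5 with the mixture. It rose 2.06-fold with diclofenac (1.56 to 2.73, adjusted p = 1.48e-05) and 1.84-fold with the mixture (1.39 to 2.44, adjusted p = 4.88e-04). The anion exchanger slc4a1a, band 3, rose 1.5-fold with each (adjusted p = 0.0426 and 0.0451), close to the threshold, and lost both calls when entries below 1 CPM were tested as well. The spectrin gene sptb, at 98.2 CPM in Control and 103 with the mixture, was not called, and its mixture fold of 1.05 had an interval of 0.838 to 1.32.

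Of the red cell enzymes, 2 of 3 rose with the mixture and 0 with diclofenac, where 8.12% and 8.52% of all tested entries rose. The nucleotidase gene nt5c2l1 had 46 CPM in Control, 76.9 with BaP, 65.7 with diclofenac and 98.8 with the mixture. It rose 2.15-fold with the mixture (1.59 to 2.9, adjusted p = 2.63e-05). Its BaP fold of 1.67 (1.24 to 2.25) had the smallest unadjusted p of the members in that comparison, 8.08e-04, and was not called (adjusted p = 0.239). The biliverdin reductase gene blvrb, whose product also reduces flavins, rose 1.64-fold with the mixture (1.25 to 2.14, adjusted p = 0.00438). The carbonic anhydrase gene cahz, which in zebrafish marks red cells, had folds of 1.17, 1.28 and 1.22 and was not called.

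Among the regulators gata1a (ENSDARG00000013477), the master transcription factor of the erythroid lineage, changed most. Its protein-coding entry had an implied 2.29 CPM in Control, 3.67 with BaP, 10.1 with diclofenac and 8.09 with the mixture. It rose 4.43-fold with diclofenac (2.87 to 6.82, adjusted p = 1.26e-09) and 3.54-fold with the mixture (2.29 to 5.45, adjusted p = 6.27e-07). The retained-intron entry of the same gene went the other way, from 1.59 CPM in Control to 0.834 with diclofenac and 0.713 with the mixture, and was not called (adjusted p = 0.217 and 0.117). A second gata1a identifier, below the limit of 1 CPM, had 0.228 CPM in Control, 0.32 with BaP, 0.664 with diclofenac and 0.00757 with the mixture. It was not called when entries below the limit were tested as well. With all gata1a entries summed, the level was 4.11 CPM in Control, 5.27 with BaP, 11.6 with diclofenac and 8.81 with the mixture. The Krüppel-like factor klf17, which activates globin genes in zebrafish, rose 2.16-fold with the mixture (1.38 to 3.37, adjusted p = 0.00847), with a diclofenac fold of 1.46 that was not called (adjusted p = 0.273). Neither tal1 nor lmo2 was called with any treatment. For tal1 the folds were 0.895, 0.875 and 0.764 with BaP, diclofenac and the mixture, and for lmo2 0.996, 1.22 and 1.27. The hemogen gene hemgn, an erythroid nuclear protein, had folds of 1.23, 1.09 and 1.25, and the erythropoietin receptor epor of 0.811, 1.52 and 1.53, with 0 of these genes called.

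The mixture was compared with each compound alone by a Wald test, approximate because it rests on variances implied by the table. Against BaP, 7 of 31 genes were higher in the mixture and 0 lower, or 17.5% of the 40 entries beside 8.33% of all tested entries higher and 8.12% lower. The 7 were hbbe3 (3.06-fold, 1.82 to 5.15, adjusted p = 4.92e-04), hmbsb (2-fold, 1.62 to 2.49, adjusted p = 2.26e-08), gata1a (2.2-fold, 1.42 to 3.43, adjusted p = 0.00532), klf17, urod, cpox and blvrb. The folds of the last 4 were 1.96, 1.73, 1.64 and 1.46. The other genes called with the mixture and not with BaP are not shown to differ between those treatments. The main entries of the major cluster's embryonic globins had intervals that included 1 in this comparison, with folds of 1.01 for hbae3, 1.06 for hbae1.3, 1.15 for hbbe1.2, 1.16 for hbbe1.1 and 1.28 for hbae1.1. The second hbae1.1 identifier had a fold of 1.56 with an interval of 1.06 to 2.31 and was not called (adjusted p = 0.112).

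Against diclofenac, 0 of 31 genes passed in either direction, where 0.222% of all tested entries were higher and 0.143% lower. Without adjustment, 5 genes had a p under 0.05 and were higher in the mixture and 0 were lower, beside 4.21% and 3.14% of all tested entries. These 5 were hbbe1.1 (1.6-fold, 1.12 to 2.28), hbbe3 (1.77-fold, 1.05 to 2.97), fech (1.76-fold, 1.04 to 2.99), nt5c2l1 (1.5-fold, 1.11 to 2.03) and hmbsb (1.33-fold, 1.07 to 1.65). The 8 genes called with the mixture and not with diclofenac are therefore not shown to differ between those treatments. For gata1a and hbbe2 the mixture value was below that of diclofenac, with folds of 0.798 (0.513 to 1.24) and 0.882 (0.568 to 1.37).

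**Figure D3:**
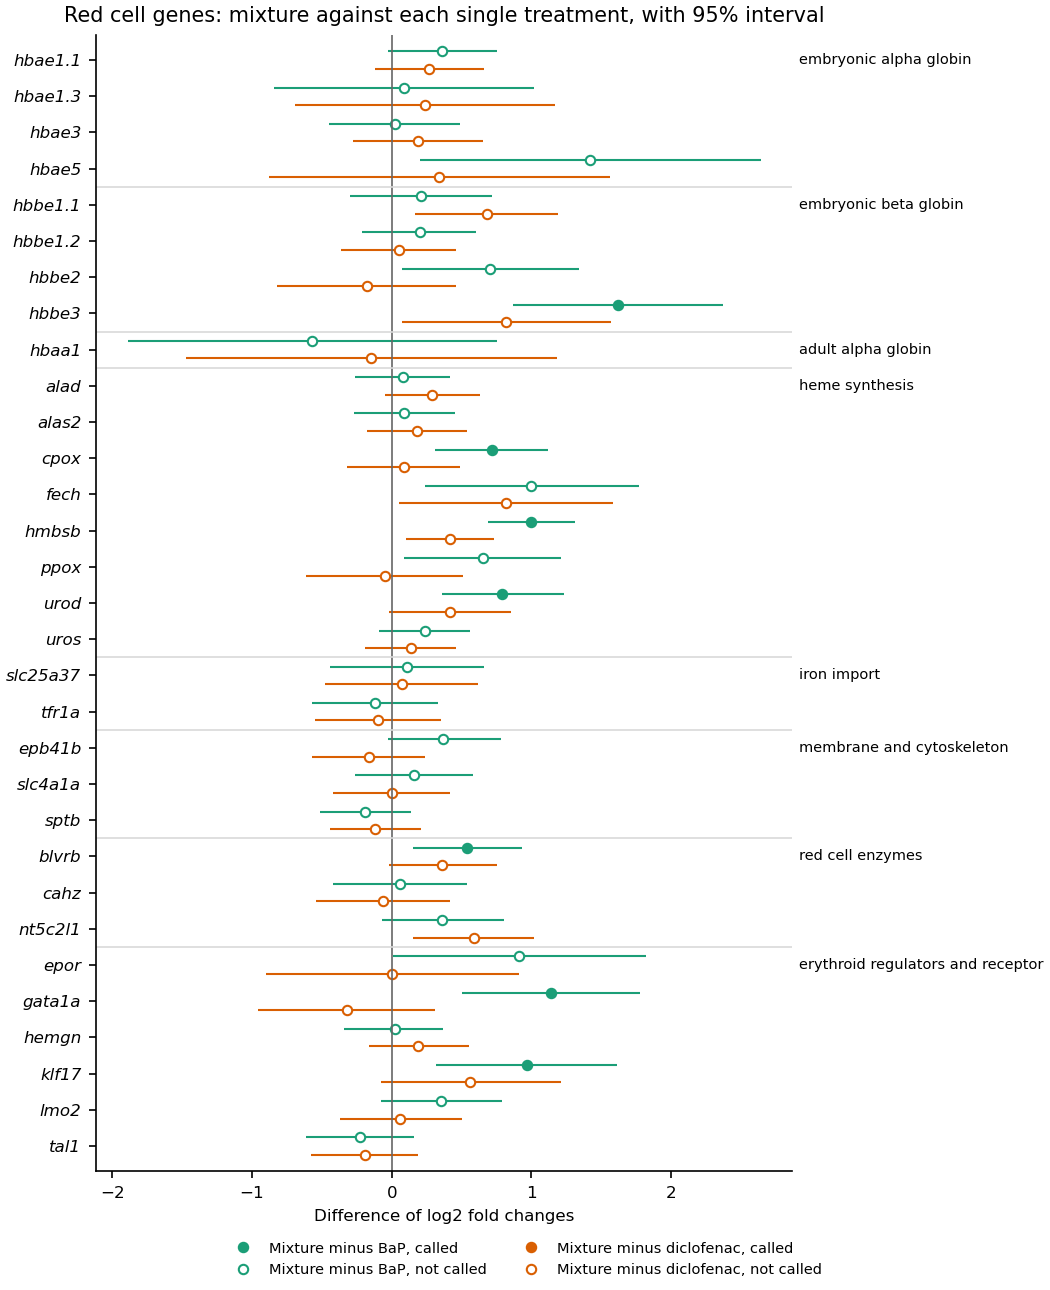
Difference of log2 fold changes (horizontal axis) between the mixture and each single treatment for the 31 red cell genes, with 95% intervals implied by the deposited statistics. Filled points are called, which 7 of the differences from BaP and 0 of those from diclofenac are, and the 7 include hbbe3, hmbsb and gata1a.

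The single compounds were compared in the same way. Genes lower with BaP than with diclofenac numbered 4 of 31, and 0 were higher, beside 9.51% of all tested entries lower and 9.63% higher. The ratio of BaP to diclofenac was 0.362 for gata1a (0.233 to 0.563, adjusted p = 1.36e-04), 0.665 for hmbsb (adjusted p = 0.00254), 0.647 for cpox (adjusted p = 0.0174) and 0.543 for hbbe2 (adjusted p = 0.0379). A retained-intron entry of hbbe1.1 was higher with BaP, by 3.86-fold, at an average of 1.27 CPM. The share of member entries that were lower, 10%, was near that of all tested entries. The other genes called with diclofenac and not with BaP are not shown to differ between the single compounds.

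The interaction asked whether the mixture departed from the sum of the log2 changes of its compounds. It was called for 0 of 31 genes, where 0.0139% of all tested entries were higher than the sum and 0.0324% lower. Without adjustment, 0 genes with a p under 0.05 were above the sum and 2 below it, gata1a and epb41b, beside 2.16% and 2.37% of all tested entries. Their departures on the log2 scale were -1.01 and -0.67, and the smallest adjusted p among the members was 0.987.

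Other genes of the red cell and of heme handling were read from lists written for this tissue. Of 21 further erythroid genes tested, 3 rose and 3 fell with diclofenac, and 4 rose and 2 fell with the mixture, with median log2 changes of 0.16 and 0.10. The genes with most reads in this list, prdx2 and rhag, were named after their values were seen and were called with no treatment. With BaP, diclofenac and the mixture the folds were 1.07, 1.07 and 1.24 for prdx2 and 0.93, 0.986 and 1.07 for rhag. The mixture interval of rhag was 0.885 to 1.29. Of all tested entries, 8.52% rose and 7.64% fell with diclofenac, and 8.12% rose and 6.67% fell with the mixture. The growth factor independence gene gfi1b, which encodes a repressor acting in the erythroid and thrombocyte lineages, averaged 1.52 CPM. It rose 3.67-fold with diclofenac (1.9 to 7.08, adjusted p = 0.00165) and 3.86-fold with the mixture. The porphyrin-binding mitochondrial protein gene tspo rose 2-fold and 2.87-fold, and the zinc finger gene znfl2a 2.61-fold and 3.71-fold. Both sox6 and bcl11aa, whose mammalian counterparts repress embryonic or fetal globin genes in mouse and human and which neurons and other tissues also express, fell with both treatments. The fold of sox6 was 0.615 with diclofenac (0.512 to 0.738, adjusted p = 6.69e-06) and 0.607 with the mixture (adjusted p = 4.38e-06), and that of bcl11aa was 0.662 and 0.626 (adjusted p = 0.0136 and 0.00436). The erythropoietin gene epoa, named after its values were seen, averaged 1.76 CPM. It rose 2.55-fold with the mixture (1.44 to 4.5, adjusted p = 0.0133), and its diclofenac fold of 2.18 was not called (adjusted p = 0.0508). The kinase gene jak2a, which signals for the erythropoietin receptor and was also named after its values were seen, fell with diclofenac to a fold of 0.632 (adjusted p = 0.0136).

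Of 35 further heme and iron genes tested, 5 rose and 2 fell with diclofenac, and 10 rose and 1 fell with the mixture, with median log2 changes of 0.17 and 0.19. The shares of all tested entries were 8.52% higher and 7.64% lower with diclofenac, and 8.12% higher and 6.67% lower with the mixture. The largest change was in slc25a38a, which averaged 3.06 CPM. It is one of the zebrafish genes for the mitochondrial glycine carrier that feeds heme synthesis. It rose 4.94-fold with diclofenac (2.73 to 8.95, adjusted p = 5.06e-06) and 5.19-fold with the mixture (2.87 to 9.38, adjusted p = 2.70e-06), while its BaP fold was 0.602 (0.306 to 1.18). The iron transporter slc11a2 rose 1.44-fold and 1.58-fold, and the iron-sensing ubiquitin ligase gene fbxl5 1.4-fold and 1.49-fold, with diclofenac and the mixture. The ferritin-like gene fthl27 and alas1, the form of the first heme enzyme used outside red cells, rose with the mixture, by 1.74-fold and 1.77-fold. Named after their values were seen, the other genes that rose with diclofenac were slc25a38b, the other glycine carrier gene (1.46-fold), and fth1a, a ferritin heavy chain (1.51-fold). The metalloreductase gene steap4 fell with diclofenac (fold 0.595), and the one that fell with the mixture was the heme oxygenase gene hmox2b (fold 0.487). Another heme oxygenase gene, hmox1a, also named after its values were seen, rose 1.84-fold with the mixture (1.31 to 2.6, adjusted p = 0.00649). Its diclofenac fold of 1.5 was not called (adjusted p = 0.1). The related gene hmox2a was called with neither (folds 1.34 and 1.02 with diclofenac and the mixture).

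Of 15 leukocyte markers tested, 7 rose with diclofenac and 5 with the mixture, and 0 fell, where 8.52% and 8.12% of all tested entries rose. Their summed implied level was 166 CPM in Control, 183 with BaP, 256 with diclofenac and 226 with the mixture. The markers that rose included the matrix metalloprotease gene mmp13a (12.9-fold and 6.58-fold with diclofenac and the mixture), the cytokine gene il1b (2.08-fold and 2.52-fold) and coro1a (1.69-fold and 1.63-fold). Called with neither were lyz, the gene with most reads in the list (folds 0.95 and 0.873), lect2l (1.02 and 1.05) and marco (1.46 and 0.525). The same held for mpx (1.49 and 1.42), lcp1 (1.43 and 1.41) and csf3r (1.24 and 1.48). Of the 15 markers, 14 had a fold above 1 with diclofenac and 13 with the mixture. The pan-leukocyte gene ptprc and the macrophage receptor gene csf1ra rose with diclofenac, by 2.22-fold and 2.09-fold, and were not called with the mixture. Among thrombocyte markers 2 of 6 rose with both treatments, namely thbs1b and nfe2l1a, which other tissues express too, while the defining markers itga2b and mpl averaged 0.357 and 0.21 CPM and were not tested. The other 4 tested, gp1bb, gp9, itgb3b and fermt3b, were not called and had diclofenac folds of 1.57, 1.14, 1.28 and 1.19. The sum of that list was 201, 216, 368 and 351 CPM in Control, BaP, diclofenac and the mixture, and most of it was thbs1b, which averaged 259 CPM. Endothelial markers rose in 2 of 11 cases with diclofenac (etv2 and cdh5) and in 2 with the mixture (etv2 and sox18), with sums of 229.7, 221, 277 and 260.1 CPM. Of 6 blood stem and progenitor markers, 1 rose with diclofenac, ptprc, which the leukocyte list also holds, and 0 with the mixture, with sums of 266, 288, 227 and 231 CPM. Most of that sum was meis1b, which averaged 213 CPM and was not called (diclofenac fold 0.802), while myb and runx1, not called either, had diclofenac folds of 1.23 and 1.36. Of 4 heme proteins used outside blood, 2 fell with the mixture, the cytoglobin genes cygb1 and cygb2, at folds of 0.672 and 0.483. Of all tested entries, 6.67% fell with the mixture. The sum of this list went from 118 CPM in Control to 99.7, 98.2 and 80.3 with BaP, diclofenac and the mixture. The part of these other cell types in the red cell values was not tested.

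**Figure D4:**
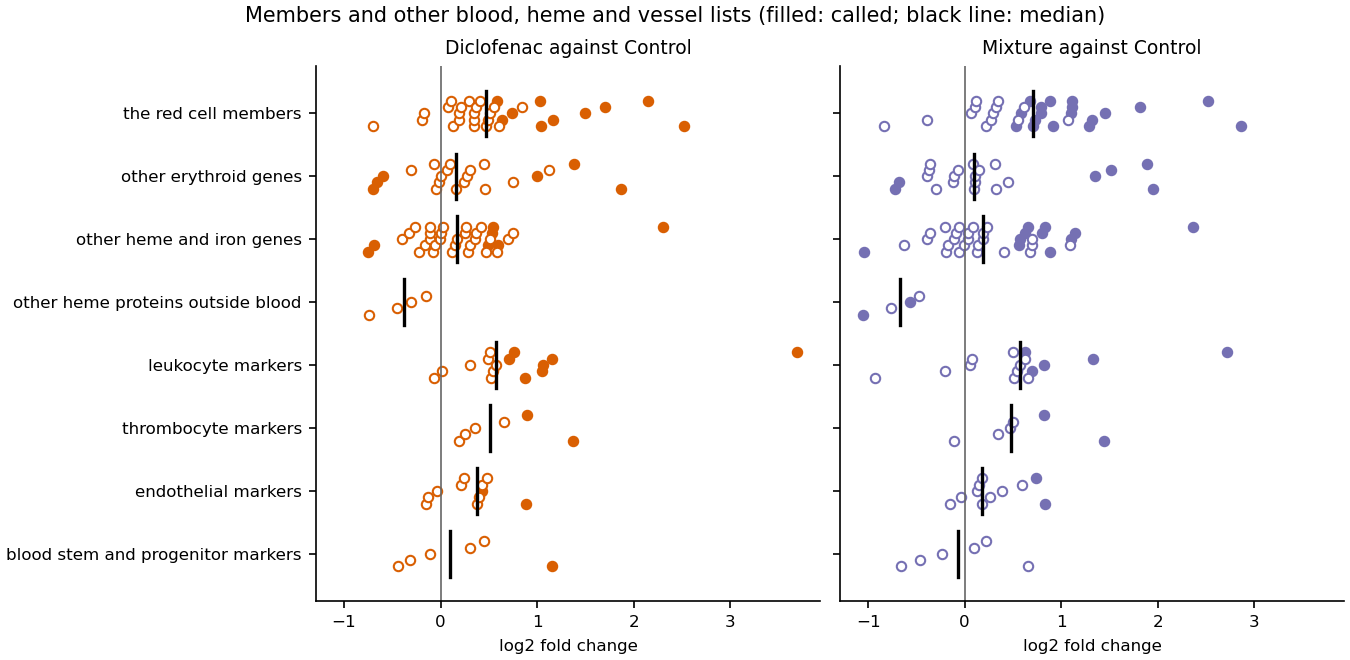
Log2 fold change against Control (horizontal axis) of single genes with diclofenac (left) and the mixture (right), for the red cell members and 7 other lists of blood, heme and vessel genes. Filled points are called and black lines are medians, which for the members lie at 0.47 and 0.71 and for the further erythroid genes at 0.16 and 0.10.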

How the data were processed

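RNA from whole fish was sequenced in 12 libraries, 3 in each of 4 groups taken from the labels. Tools listed in the submitters' processing notes were kallisto, edgeR and limma, and the build was GRCz11; neither roles nor versions are given there. The authors deposited log2 fold changes against Control, the average log2 CPM, a likelihood ratio score and its p-value, per the file headers. The log base is not stated. Base 2 was used, since the averages raised from that base summed to 1007677, close to the total of CPM. The 3 average columns were identical. The deposited p-value matched the chi-square tail of the ratio on 1 degree of freedom, so it is unadjusted.

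The p-values were adjusted by Benjamini-Hochberg over the 21622 entries averaging 1 CPM or more, with a threshold of 0.05 on two-sided tests. A standard error was implied as the fold change over the root of its ratio. Differences between treatments were tested by a Wald test with the largest of an entry's 3 implied variances (multiplied by 2 for the interaction), assuming equal spread in the groups. Group levels were solved from the average, less the value of entries with no reads, and the folds. They sum to between 965189 (Control) and 1032401 (Mixture). The fits planned on values per library could not be run. The steps were tested on simulated data, drawn with equal spread in the groups and with the implied variances. That test could not check those assumptions. Members and lists were chosen with earlier results of these data known. The naming rule gave every called member, the member with most reads in each list, and up to 5 called genes of each other list by adjusted p. The spread behind each p-value is the one the authors' fit estimated, and the libraries may be technical or biological replicates. Software was Python 3.11.15, numpy 2.4.6, pandas 2.3.3, scipy 1.17.1 and matplotlib 3.10.9. The values of 1 gene counted in a list are not reported here.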

Additional observations from a re-analysis of the deposited data

How the results depend on the processing

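Of 31 genes in 7 comparisons under up to 8 alternatives, 1566 of 1608 values kept their direction and side of the threshold. Of the rest, 38 lost a call and 4 gained one (epb41b between the single compounds), and 0 called values changed sign. Much of this agreement was built in. Every alternative used the same deposited fold changes, so only centring on the median could change a direction. That centring could not change a call, and the Benjamini-Yekutieli adjustment and the 2-fold limit could only remove calls. With Benjamini-Yekutieli adjustment 12 member entries rose with the mixture in place of 20, 3 differed between the mixture and BaP in place of 7, and 2 between the single compounds in place of 5. A limit of 2-fold left 11, 3 and 2. With no abundance limit 1 member entry was called with BaP, a retained-intron entry of alad below 1 CPM that fell, and slc4a1a lost its call with diclofenac and the mixture. Centring on the median of all entries moved values by at most 0.0192, and the calls were not computed again from the centred values. Other counts stayed within 1.5 times. Leaving out replicates could not be run on finished comparisons. No paired analysis was possible because the table carries no replicate numbers. Depth per library is unknown, and precision is limited for hbae5, fech, epor, slc25a37 and hbaa1, each averaging under 5 CPM.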

Other observations

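Retained-intron entries averaging at least 1 CPM were found for 5 of the red cell genes, and none of the 5 was called against Control. Beside gata1a, described above, that of hemgn went from 1.3 CPM in Control to 0.893 with diclofenac and 0.623 with the mixture, while the protein-coding entry went from 34.2 to 37.4 and 42.7. For hbbe1.1 it went from 1.36 CPM in Control to 0.461 and 0.923, while the protein-coding entry went from 875 to 947 and 1516. For nt5c2l1 it went from 0.534 CPM to 0.352 and 1.58, and for cahz from 2.02 to 3.5 and 2.41. The difference between transcript classes was not tested.

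A retained-intron entry of alad, below the abundance limit, had an implied level of 0.662 CPM in Control and 0.00884 in each of the 3 treatments. Tested with no abundance limit it was lower in all 3 comparisons, by a log2 value of -6.23 per the authors' deposited table (adjusted p = 0.0114 with BaP, 7.28e-04 with diclofenac and 6.94e-04 with the mixture). With almost no reads implied in any treatment, the size of that fold is uncertain. The 3 comparisons share the Control libraries, so they are not separate observations. The protein-coding alad entry, at 28.3 CPM in Control, was not called in any of them. The second gene identifier of hbae5, also below the limit, had 0.0464 CPM in Control, 0.112 with BaP, 0.433 with diclofenac and 0.689 with the mixture, the same order as the main entry, and was not called.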
